A study of Arabidopsis thaliana with 18 samples.

Results

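The regions described here are the last introns of Arabidopsis genes with many introns, that is, the intron nearest the 3′ end of every gene for which at least 4 introns are listed. The listing holds 121244 introns of 22121 genes, with 1 transcript per gene. Of these genes, 11892 had at least 4 introns, 25 were left out because their intron list was not in order along the gene, and 11867 last introns remained. They were set beside the 78672 inner introns (neither first nor last) and the 11867 first introns of the same genes. The choice used position alone and no measured value.

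Splicing was measured in chromatin-bound RNA (CB-RNA) and in total RNA of seedlings 14 days old, and RNA polymerase II (Pol II) by pNET-seq with an antibody against the Ser2-phosphorylated form. CB-RNA came from xrn3 seedlings (the allele xrn3-3, an insertion in the gene of a nuclear exonuclease) and from the parental accession Col-0, with 2 libraries each. The allele is described as a weak one by the study's discussion. Total RNA came from Col-0 seedlings held for 1 h in 5 µM herboxidiene (GEX1A), a small molecule that binds the SF3B part of the spliceosome, and from Col-0 seedlings held for 1 h in the solvent DMSO, with 3 libraries each. Each of these 4 groups also has 2 pNET-seq libraries. All tables hold 1 pooled value per group, so every test below compares pooled libraries and covers read counting only, not the genotypes or treatments.

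An intron can be removed while Pol II is still transcribing the gene, and the last intron has the least time for this, since only the last exon and the region past the polyadenylation site remain to be transcribed. Definition of the last exon also differs from that of the others, because it lies between a 3′ splice site and a polyadenylation site rather than between splice sites. In animals, factors at the last 3′ splice site and the 3′ end processing machinery are known to interact.

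The splicing level of an intron is given as its intron ratio, the intronic reads over the exonic reads at both of its splice sites, with 0.5 added to each. A high ratio means much unspliced RNA. A last intron was used in a group when it had at least 10 exonic reads at both sites. This held for 8651 members in the libraries labelled xrn3, 8480 in Col-0, 5494 after herboxidiene and 6816 in DMSO. In all 4 groups 5303 members passed, 9075 passed in at least 1, and 2792 passed in none. The photosynthesis genes RCA, GAPB, PRK and PSBO1, taken as a check of green seedling tissue, had between 6604 and 103586 exonic reads in every group.

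The sequences of a few last introns that are named below are shown here, so that the stretch whose reads are counted can be seen. All were read from RefSeq TAIR10.1 at the TAIR10 coordinates of the tables. Each is the whole intron on the transcribed strand, 5′ to 3′, with the first and last pair of bases in capitals. The first group had intronic reads after herboxidiene and none in DMSO, the second had the opposite pattern, the third (AT1G20220, AT5G45670 and AT4G12590) is taken from the named rises and falls between xrn3-labelled libraries and Col-0, and the last, in EIF4A1, is far shorter than the others. All of them lie in a coding region.
DRH1, chr3:213213-213310, minus strand, 98 bp: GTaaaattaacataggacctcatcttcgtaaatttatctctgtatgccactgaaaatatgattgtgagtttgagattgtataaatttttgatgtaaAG
CNX1, chr5:24827517-24827600, minus strand, 84 bp: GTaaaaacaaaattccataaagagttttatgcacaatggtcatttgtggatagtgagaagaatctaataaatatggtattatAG
AT5G39590, chr5:15853585-15853669, plus strand, 85 bp: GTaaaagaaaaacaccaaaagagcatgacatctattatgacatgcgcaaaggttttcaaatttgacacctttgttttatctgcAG
GLYR1, chr3:9272033-9272138, minus strand, 106 bp: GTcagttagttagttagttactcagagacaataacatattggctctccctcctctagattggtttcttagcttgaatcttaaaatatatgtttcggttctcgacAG
AT1G72550, chr1:27320016-27320100, minus strand, 85 bp: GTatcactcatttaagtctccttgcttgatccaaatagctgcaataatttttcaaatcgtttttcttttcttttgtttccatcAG
AT1G20220, chr1:7005182-7005261, minus strand, 80 bp: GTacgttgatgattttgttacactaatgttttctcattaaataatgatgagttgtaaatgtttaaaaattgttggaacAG
AT5G45670, chr5:18529856-18529940, plus strand, 85 bp: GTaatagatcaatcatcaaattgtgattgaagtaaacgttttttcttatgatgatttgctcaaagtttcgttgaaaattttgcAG
AT4G12590, chr4:7451396-7451496, minus strand, 101 bp: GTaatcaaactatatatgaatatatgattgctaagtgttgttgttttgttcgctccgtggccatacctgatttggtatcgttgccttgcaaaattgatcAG
EIF4A1, chr3:4592665-4592704, minus strand, 40 bp: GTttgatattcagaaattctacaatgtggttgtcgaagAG

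As a class, last introns were short and differed from other introns in some splice site bases. Their median length was 94 bp, against 96 bp for inner and 153 bp for first introns of the same genes, and 12.0% of them were 200 bp or longer, against 15% of inner and 41.8% of first introns. GC content barely differed, with medians of 32.9% in last, 32.9% in inner and 32.6% in first introns, whereas T was less frequent in last introns (38.4%) than in inner (40.7%) and first (42.6%) ones. Of the last introns, 98.7% begin with GT and end with AG, against 98.8% of inner and 99.1% of first introns.

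Past these pairs, the bases of the usual plant splice sites were more frequent in last introns at some positions and less frequent at others. The donor start GTAAG, read on the transcribed strand, opens 20.9% of last, 17.0% of inner and 13.3% of first introns. The acceptor end TTGCAG closes 14.3% of last, 9.91% of inner and 10.7% of first introns. A C just before the final AG is found in 71.7% of last, 64.9% of inner and 58.7% of first introns. At base 3 of the intron an A stands in 72.0% of last, 66.3% of inner and 58.6% of first introns. The donor bases further in were less frequent in last than in inner introns, with a G at base 5 in 49.3% of last, 51.2% of inner and 47.2% of first introns, and a T at base 6 in 48% of last, 50.8% of inner and 52.3% of first introns. Among the introns printed above, AT5G45670 ends in TTGCAG, and AT5G39590 ends in CTGCAG.

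RefSeq places 10976 of the last introns (92.5%) between coding exons and 463 (3.90%) in the 3′ UTR. A further 247 are in genes with no coding region, 180 are in no RefSeq model, and 1 is in a 5′ UTR. Another model of the same gene has an exon over 1173 last introns (9.88%), against 2.80% of inner and 8.37% of first introns. Where the gene end was given (10242 members), the last exon had a median length of 380 bp, with quartiles of 294 and 505 bp.

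In chromatin-bound RNA last introns had the highest median ratio of the 3 positions. For xrn3-labelled libraries the median intron ratio was 0.269 for last, 0.187 for inner and 0.176 for first introns. In Col-0 it was 0.349 for last, 0.247 for inner and 0.224 for first introns, with quartiles of 0.216 and 0.527 for last introns. In total RNA the order changed. After herboxidiene the median ratio was 0.151 for last, 0.144 for inner and 0.255 for first introns, and in DMSO it was 0.0456 for last, 0.0502 for inner and 0.0537 for first introns. CB-RNA and total RNA are different preparations of different seedlings, so their levels are set side by side and not tested.

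**Figure D1:**
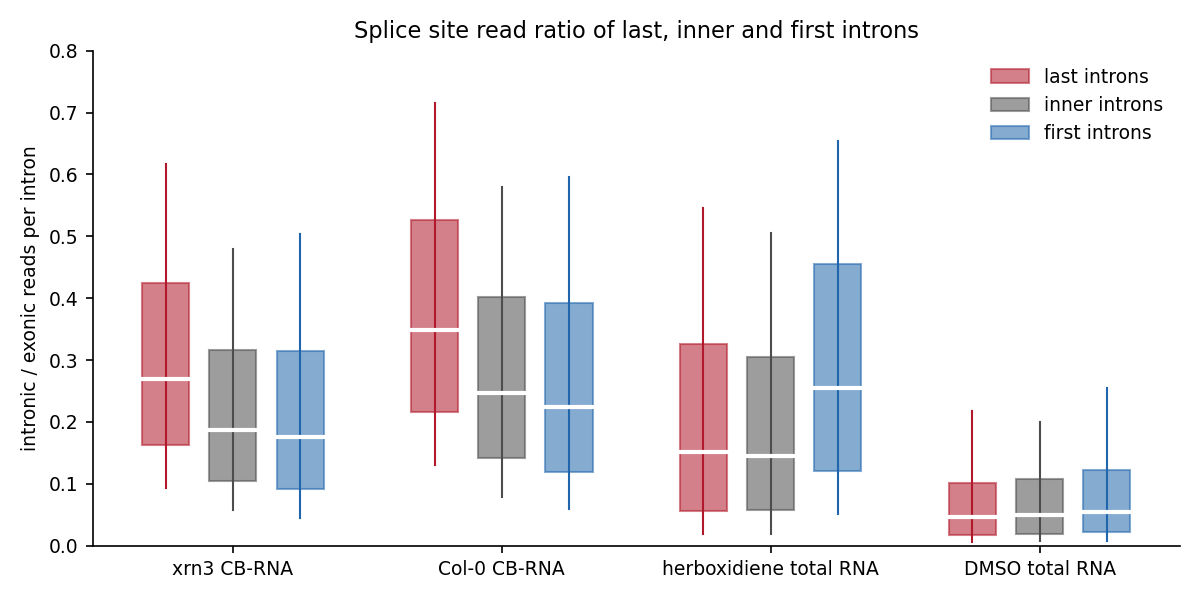
Intron ratio (intronic over exonic reads) in the 4 RNA groups, for last, inner and first introns of genes with at least 4 introns. Bars span the quartiles over introns and the marks are medians. In both CB-RNA groups the last introns sit highest (0.269 in the xrn3-labelled libraries and 0.349 in Col-0), and after herboxidiene the first introns do (0.255).

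The spread among last introns was wide in DMSO. The quartiles there were 0.0171 and 0.101, and 12.0% of the members had no intronic read, against 5.28% after herboxidiene, where the quartiles were 0.0558 and 0.326. Inner introns spread about as widely, with quartiles of 0.0195 and 0.107 in DMSO. Over all introns, 10.7% in DMSO and 4.40% after herboxidiene had no intronic read. The upper tail was heavier in last than in inner introns, and in total RNA first introns had it too. A ratio over 0.5, at least 1 intronic read for every 2 exonic reads, was seen in DMSO in 3.11% of last introns (212 members), against 1.5% of inner and 3.15% of first introns. After herboxidiene it was seen in 12.3% of last, 10.2% of inner and 20.7% of first introns. In Col-0 CB-RNA 28.1% of last, 15.4% of inner and 15.5% of first introns were over 0.5. Median depth was 129 exonic and 36 intronic reads per last intron in the libraries labelled xrn3, 127 and 44 in Col-0, 121 and 19 after herboxidiene, and 146 and 7 in DMSO, so that single low ratios in DMSO rest on few reads.

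Along genes with at least 8 introns, the CB-RNA ratio climbed from the 5′ end to the 3′ end. The xrn3-labelled medians of introns 1 to 4 from the 5′ end were 0.148, 0.151, 0.16 and 0.170, and those of the last 4 introns, ending with the last, were 0.204, 0.208, 0.222 and 0.256. In Col-0 the first 4 had 0.184, 0.189, 0.200 and 0.224 and the last 4 had 0.271, 0.271, 0.296 and 0.338. The last step, from the penultimate to the last intron, was the largest between neighbours among the last 4 introns of both groups. After herboxidiene the profile ran the other way, with 0.233, 0.206, 0.189 and 0.168 at the 5′ end and 0.120, 0.109, 0.108 and 0.106 at the 3′ end. In DMSO it was nearly flat, from 0.0537 at the first to 0.0455 at the last intron.

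**Figure D2:**
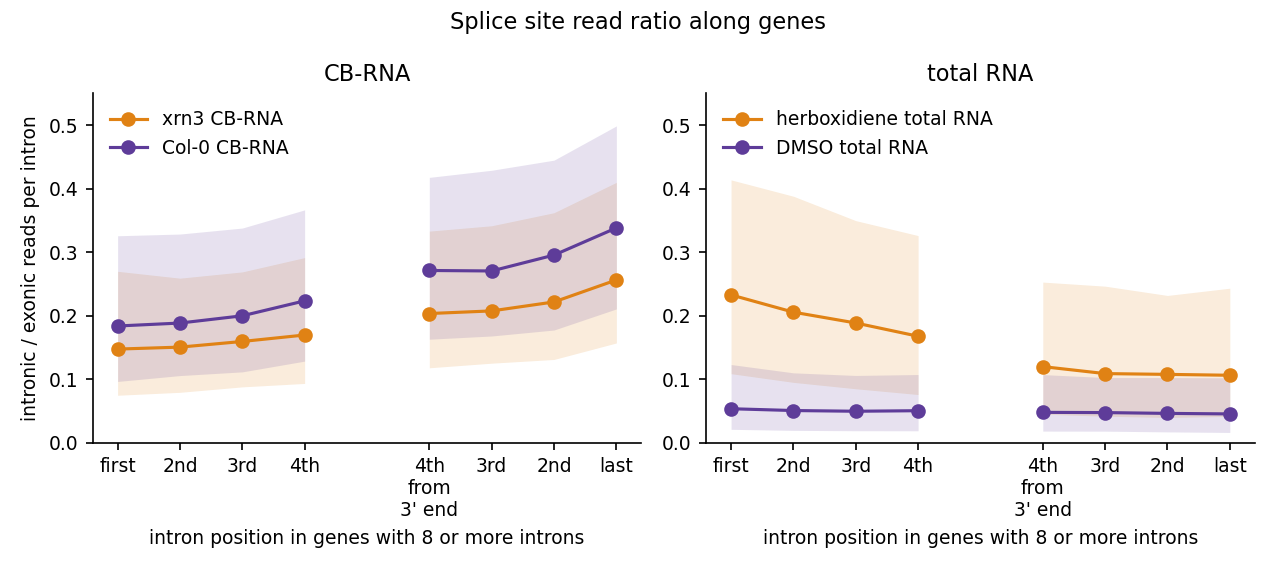
Median intron ratio by position, counted from the 5′ end (introns 1 to 4) and from the 3′ end (4th last to last), in genes with at least 8 introns, one line per group. The CB-RNA lines climb to the last intron (0.256 in the xrn3-labelled libraries, 0.338 in Col-0), the herboxidiene line descends to 0.106, and the DMSO line stays between 0.0455 and 0.0537.

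The number of introns in the gene hardly changed the last intron in chromatin-bound RNA, while it changed the inner ones. In Col-0 the last-intron median was 0.363 in genes with 4 to 6 introns, 0.351 with 7 to 10, and 0.330 with 11 or more. The inner introns of the same genes had 0.309, 0.274 and 0.217 in that order, so the gap widened in intron-rich genes. After herboxidiene the last-intron median was 0.209 in genes with 4 to 6 introns, 0.151 with 7 to 10 and 0.0804 with 11 or more, and the inner introns had 0.232, 0.186 and 0.107. In DMSO the last introns stayed between 0.0443 and 0.0468 over these classes.

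The length of the last exon went with the ratio of the last intron. In Col-0 CB-RNA the median was 0.527 where the last exon had at most 200 bp, 0.439 above that and up to 300 bp, 0.359 up to 400 bp, 0.324 up to 600 bp, 0.296 up to 1000 bp and 0.299 above 1000 bp. The inner introns of these genes fell in a narrower range, from 0.336 in the shortest class to 0.274 in the longest. The xrn3-labelled medians of last introns were 0.470 in the shortest class and 0.227 in the longest. Spearman's rho between the ratio and last exon length was -0.227 over 8524 members in the xrn3-labelled libraries and -0.217 over 8352 in Col-0, which describes genes of 1 pooled table that share their libraries and annotation.

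In total RNA this relation was different. After herboxidiene the last-intron median was 0.245 in genes with a last exon of at most 200 bp, 0.118 with more than 200 and up to 300 bp, and 0.252 above 1000 bp, with a rho of 0.134 over 5438 members. In DMSO it was 0.0956 in the shortest class, 0.0412 with more than 400 and up to 600 bp and 0.0592 in the longest, with a rho of -0.0422 over 6740 members. The length of the last intron itself went with its ratio only weakly, with rho between -0.0466 after herboxidiene and 0.0769 in Col-0. For exonic reads, rho with the ratio was -0.318 in xrn3-labelled libraries, -0.217 in Col-0, -0.243 after herboxidiene and -0.333 in DMSO. Exonic reads are the denominator of the ratio, so a negative rho is partly built in. Their part in the relation to last exon length was not tested.

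**Figure D3:**
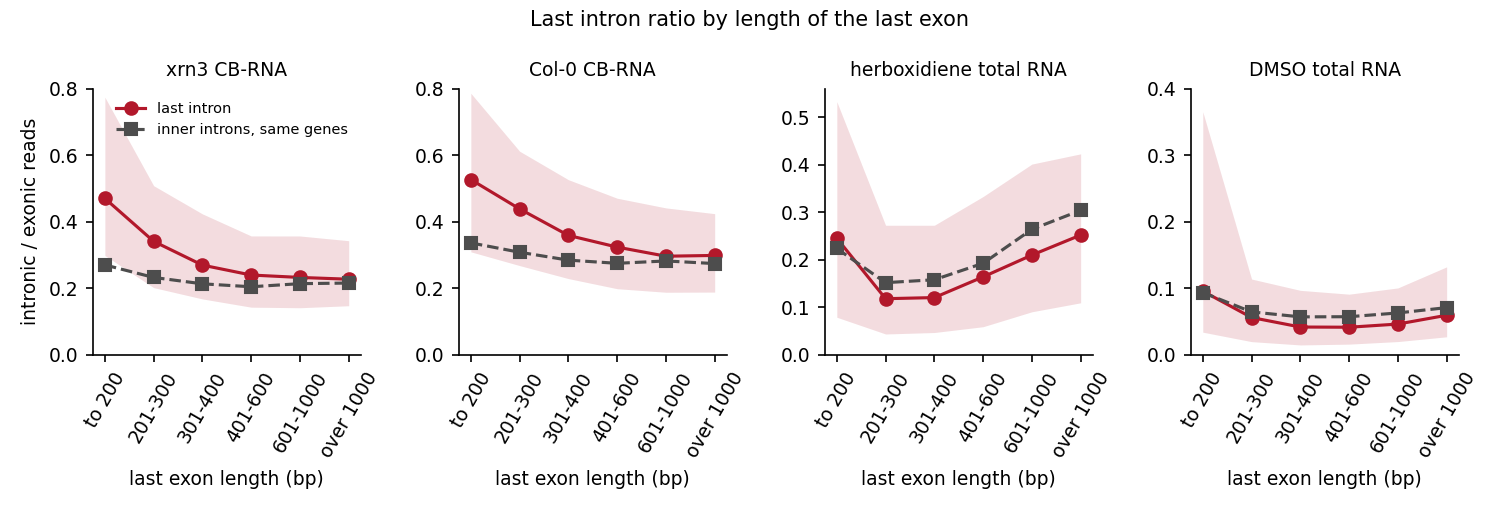
Median intron ratio of last introns (and of the inner introns of the same genes) by length class of the last exon in bp, one panel per group, each panel with its own linear y axis. In Col-0 the last introns range from 0.527 before the shortest last exons to 0.299 before the longest, and after herboxidiene the medians are 0.245 and 0.252 at these ends with lower values between.

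Where the intron lies also mattered. Last introns in the 3′ UTR had a higher median ratio than those in the coding region in every group, with 0.422 against 0.264 in the libraries labelled xrn3, 0.492 against 0.344 in Col-0, 0.201 against 0.148 after herboxidiene and 0.105 against 0.0442 in DMSO. Last introns over which another model of the gene has an exon had medians of 0.475, 0.565, 0.338 and 0.121 in these groups in the same order, against 0.253, 0.333, 0.139 and 0.0419 for the others. Of the 5303 members that passed in all 4 groups, 84 (1.58%) had a ratio over 0.5 in all 4, against 0.491% of inner and 1.54% of first introns. Of these 84, 52 are exonic in another model, 12 lie in a 3′ UTR and 3 are shorter than 60 bp.

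Within the same gene, the last intron was compared with the summed reads of the inner introns by Fisher's exact test (two-sided), with p-values adjusted over genes and a threshold of 0.05. With xrn3-labelled libraries, the last intron had the higher ratio in 2788 of 8612 genes (32.4%) and the lower in 1070 (12.4%). In Col-0 it was higher in 2749 of 8440 (32.6%) and lower in 1190 (14.1%). When each inner intron was set against the other inner introns of its gene in the same way, 21.9% were higher and 25.9% lower in the libraries labelled xrn3, and 23.6% were higher and 28.3% lower in Col-0. These shares count introns rather than genes, so genes with many introns weigh more in them. The share of higher calls was thus above that of an inner intron in both CB-RNA groups, and the share of lower calls below it.

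After herboxidiene the balance was turned round, with 545 of 5482 last introns higher (9.94%) and 1253 lower (22.9%), against 13.9% and 17% for inner introns among themselves. In DMSO 1050 of 6801 were higher (15.4%) and 1427 lower (21%), against 15.8% and 18.5%. The DMSO balance did not hold when reads of only 1 splice site were used, with 9.4% higher and 8.69% lower at the 5′ site and 9.73% higher and 9.01% lower at the 3′ site. A read that spans both sites can count at each of them, so summing the sites can count it double. This can make the tests on summed reads too ready to call. With the summed counts halved, the shares were 19.5% higher and 5.71% lower in the xrn3-labelled libraries, 21.3% and 7.48% in Col-0, and 4.41% and 7.92% after herboxidiene. Shares for inner introns among themselves were not computed with 1 site or with halved counts, so the shares under these settings have no such baseline.

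Set against the penultimate intron alone, the last intron was higher in 23.2% and lower in 12% of genes in the libraries labelled xrn3, and higher in 24.4% and lower in 13.8% in Col-0. After herboxidiene these shares were 10.9% and 11.1%, and in DMSO 14.4% and 14.9%, so neither direction dominated in total RNA. Set against the first intron, the last was higher in 39.1% and lower in 13.5% of genes in the libraries labelled xrn3, and higher in 41.6% and lower in 13.5% in Col-0. After herboxidiene it was higher in 7.76% and lower in 33% of genes, and in DMSO higher in 14.3% and lower in 21.7%.

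**Figure D4:**
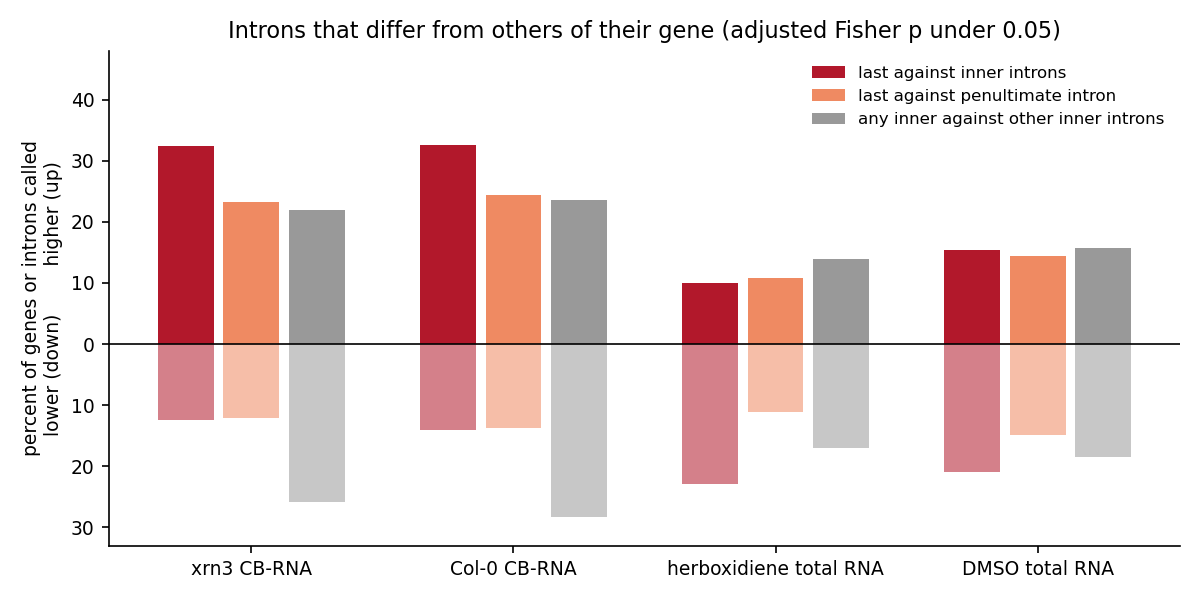
Percent of genes in which the last intron had a higher or a lower ratio than the inner introns of the same gene (Fisher's exact test, adjusted p under 0.05), for each group, beside the same for inner introns against the other inner introns of their gene. Higher calls lead in CB-RNA (32.4% against 12.4% in the xrn3-labelled libraries, 32.6% against 14.1% in Col-0) and lower calls lead after herboxidiene (22.9% against 9.94%).

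The genes with the largest excess of the last over the inner introns in Col-0 CB-RNA were HPA1, CA1, EIF4A1 and AT1G16350. At CA1, which encodes the abundant chloroplast carbonic anhydrase, the last intron (chr3:194892-195178, 287 bp) had 6892 intronic reads to 8112 exonic ones, against 2805 to 41913 in the inner introns, a 12.7-fold higher ratio with a counting interval of 12.1 to 13.3. Its ratio was 0.854 in the xrn3-labelled libraries, 0.850 in Col-0, 0.866 after herboxidiene and 0.821 in DMSO. The last intron of CA1 therefore stood at nearly the same ratio in every group, while its inner introns had 0.0380, 0.0669, 0.00371 and 0.00392 in the same order.

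EIF4A1, a translation initiation factor with RNA helicase activity, had 1411 intronic and 1359 exonic reads at its 40-bp last intron in Col-0, against 232 and 2431 at its inner introns. Its last-intron ratio was 1.07 in the xrn3-labelled libraries, 1.04 in Col-0, 1.01 after herboxidiene and 1.07 in DMSO. Both CA1 and EIF4A1 are among the 52 whose last intron is exonic in another model. EIF4A1 has close paralogs, and only uniquely mapped reads were counted, so its level is less certain. HPA1, an enzyme of histidine synthesis, had 22 intronic to 169 exonic reads at the last intron in Col-0 and 3 to 339 at the inner ones, a 14.7-fold higher ratio with an interval of 4.31 to 77.5. AT1G16350 had 30 to 125 and 6 to 227, a 9.08-fold higher ratio with an interval of 3.57 to 27.3.

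The excess of these last 2 genes was seen in Col-0 only among the CB-RNA groups. In the libraries labelled xrn3, HPA1 had 8 to 227 reads at the last and 74 to 983 at the inner introns, 0.468 times the ratio of the inner introns with an interval of 0.192 to 0.990, which did not pass the test (Fisher's exact test, adjusted p = 0.0796). AT1G16350 had 23 to 135 and 41 to 304 there, a 1.26-fold higher ratio with an interval of 0.694 to 2.25. The log2 change of the last intron minus that of the inner introns was -4.09 (SE 1.01) at HPA1 and -2.74 (SE 0.76) at AT1G16350, both called in the test of this difference. Both genes were picked for their excess in Col-0, and this test uses the same Col-0 counts again. A smaller excess in the other libraries is therefore partly built in, and the calls are no independent evidence of a change. In total RNA, the last intron of HPA1 was higher again after herboxidiene, with 17 to 125 against 0 to 70 reads (Fisher's exact test, adjusted p = 0.00499). It was not called in DMSO, with 0 to 159 against 0 to 211. That of AT1G16350 was higher in DMSO, with 5 to 105 against 0 to 235 (adjusted p = 0.0118 by Fisher's exact test). After herboxidiene it was not called, with 8 to 79 against 31 to 234.

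The deficits in Col-0 that ranked first by the fitted log2 difference, which rests on the 0.5 added to each count, were at AT1G78560, JAL22, AT1G57770 and AT1G27921. The last intron of AT1G78560 had 0 intronic to 124 exonic reads, against 273 to 614 in its inner introns, at least 18.4-fold lower when 3 reads are taken as the limit that a count of 0 allows. JAL22, of the jacalin-like lectin family, had 0 to 139 at the last and 405 to 1877 at the inner introns, at least 9.997-fold lower. AT1G27921, a gene with no coding region, had 9 to 170 and 2046 to 3009, 0.0779 times the ratio of the inner introns with an interval of 0.0349 to 0.152. AT1G57770 had 0 to 129 and 134 to 1626, at least 3.54-fold lower, a bound that is smaller than the measured deficits of AT4G10030 (0.166 times the ratio of the inner introns) and PES1 (0.170 times). In the libraries labelled xrn3 the last introns of AT1G78560 (4 to 114 reads), JAL22 (6 to 222) and AT1G27921 (4 to 214) were again under their inner introns in this test. AT1G57770 was not, with 13 to 215 at the last and 103 to 1841 at the inner introns, a ratio 1.08 times as high with an interval of 0.547 to 1.97.

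The comparison of xrn3 with Col-0 asks whether splicing on chromatin changes when the exonuclease that degrades the RNA left after cleavage is impaired. The gene XRN3 itself gave reads in the xrn3-labelled libraries, fewer than in Col-0 in CB-RNA and more in pNET-seq. Over its 22 introns it had 6925 exonic CB-RNA reads there and 8055 in Col-0, and at its last intron 138 and 309. Its gene body had 9931 pNET-seq reads there and 302 in Col-0. An insertion need not lower reads over the rest of a gene, and the assays differ in direction, so this does not check the genotype. For that reason the libraries are named by their label throughout. Reads in the peak windows of all genes listed for pNET-seq were 5821401 in these libraries and 2601593 in Col-0, which leaves the XRN3 gene body far above the difference in depth.

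Last introns had somewhat lower ratios in the libraries labelled xrn3, as introns in general did. Among the 8210 members tested, 124 (1.51%) rose and 1674 (20.4%) fell, against 2% and 21.5% of all introns tested. The median log2 change was -0.35 for last, -0.37 for inner, -0.32 for first and -0.37 for all introns. The shift of the last introns was thus that of the whole table. With reads of only the 5′ site, 0.231% rose and 6.77% fell, and with the summed counts halved, 0.0731% rose and 5.27% fell. The number of calls thus depends on how reads at the splice sites are counted, while the excess of falls remains.

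A test of the difference between the change of the last intron and that of the inner introns of the same gene called 331 of 8156 genes (4.06%) where the last intron changed upward relative to the inner ones and 258 (3.16%) where it changed downward. The median difference was 0.04 on the log2 scale. The test was not run for inner introns among themselves, so these shares have no baseline. With at least 50 exonic reads at both sites the shares were 5.32% and 5.37%, so the small excess of upward differences did not persist, and with reads of the 5′ site alone they were 0.233% and 0.147%. Against the first intron, 230 of 7501 genes (3.07%) were called upward and 276 (3.68%) downward.

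Some members departed from this shift. The 6 largest rises in fitted log2 ratio among well-covered members were in AT1G57770, TOC75-III, PES1, AT4G10030, AT1G27850 and AT1G20220. At AT1G20220, whose last intron is printed above, there were 57 intronic to 132 exonic reads in the libraries labelled xrn3 and 22 to 156 in Col-0, a 3.06-fold higher ratio with an interval of 1.73 to 5.54 (Fisher's exact test, adjusted p = 0.000603). The ratios at its last intron were 0.434 in the xrn3-labelled libraries and 0.144 in Col-0, while its inner introns had 0.0825 and 0.175 in that order. TOC75-III, the protein import channel of the chloroplast outer envelope, had 31 intronic to 206 exonic reads in the libraries labelled xrn3 and 3 to 119 in Col-0, a 5.97-fold higher ratio with an interval of 1.80 to 31.1.

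PES1, a phytyl ester synthase of the chloroplast, had 23 to 126 in the libraries labelled xrn3 and 5 to 124 in Col-0, a 4.53-fold higher ratio. AT1G27850 had 42 to 290 and 8 to 178, and AT4G10030 had 24 to 171 and 5 to 125, in the same order. AT1G57770 had 13 to 215 in the libraries labelled xrn3 and 0 to 129 in Col-0, at least 2.6-fold higher. Every one of these 6 lost its call with reads of the 5′ site alone and with halved counts, and of the 6 only AT1G20220 kept it with reads of the 3′ site alone. At 4 of these 6 genes, AT1G20220 included, the last intron also differed from the inner ones in its change. All 6 were picked for the rise at the last intron, whose counts this test uses again, so such a difference is partly built in.

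The 6 largest falls rested on more reads in Col-0 and kept their calls under all of these settings. At AT4G12590 there were 6 intronic to 203 exonic reads in the libraries labelled xrn3 and 69 to 140 in Col-0, 0.0600 times the Col-0 ratio with an interval of 0.0208 to 0.143 (adjusted p = 1.14e-14 by Fisher's exact test). AT5G45670 had 0 to 114 in the libraries labelled xrn3 and 37 to 134 in Col-0, at least 10.5-fold lower. AT2G23940 had 2 to 155 and 53 to 199, AT1G77550 had 3 to 194 and 39 to 143, and AT2G25980 had 3 to 218 and 25 to 115, in the same order. BBC1, a ribosomal protein of the large subunit, had 4 to 181 in the libraries labelled xrn3 and 25 to 110 in Col-0. At AT5G45670 and AT2G23940 the last intron was well covered with intronic reads in Col-0 and nearly without them in the libraries labelled xrn3, with exonic reads of the same order in both.

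Members that rose had a low ratio in Col-0, with a median of 0.114, against 0.366 for those that fell and 0.345 for those not called. Their last exons were about as long, with medians of 387 bp among those that rose, 410 bp among those that fell and 389 bp among the rest. Those that fell were the better covered ones, with a median of 246 exonic reads in Col-0, against 97 for those that rose and 116.5 for those not called. The Col-0 ratios and reads given here also made the calls, so they only describe the called members.

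Herboxidiene tests what happens to each intron when the spliceosome is inhibited for 1 h. The ratio of the last intron rose in most genes, about as often as that of introns in general. Of 5448 members tested, 3031 (55.6%) rose and 189 (3.47%) fell, against 58.7% and 3.13% of all introns tested. The median log2 change was 1.74 for last, 1.63 for inner, 2.19 for first and 1.81 for all introns. With intronic counts under 3 raised to 3, it was 1.73 for last introns, over 5079 members. The 369 members with at most 3 intronic reads in both groups were left out of that value. With reads of the 5′ site alone, 1.32% fell. No intronic read was seen after herboxidiene in 288 of the tested members and in DMSO in 595. Over all 54138 introns tested, these counts were 2386 and 5145.

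Relative to the inner introns of its own gene, the last intron was called as responding more in 378 of 5435 genes (6.95%). It was called as responding less in 717 (13.2%). The median difference was -0.06 on the log2 scale, and 48.6% of the differences were positive. Median log2 changes in these genes were 1.74 at the last and 1.73 at the inner introns. The test was not run for inner introns among themselves, so these shares have no baseline. Relative to the first intron, the last intron was called as responding more in 379 of 4999 genes (7.58%) and less in 719 (14.4%). The median difference there was -0.39. With reads of the 5′ site alone, 0.975% responded more and 4.27% less than the inner introns. The first intron was the end of the gene with the larger response.

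Members that rose lay in genes with fewer introns, with a median of 6, against 9 for those that fell and 8 for those not called. Their last exons were longer, with a median of 418 bp, against 355.5 bp for those that fell and 380 bp for those not called. In DMSO, members that rose had a low ratio, with a median of 0.0302, against 0.122 for those that fell and 0.0566 for those not called. These values come from the same counts as the calls and are a description.

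The 6 largest rises in fitted log2 ratio after herboxidiene all had no intronic read in DMSO, so that each is a lower bound. DRH1, a DEAD-box RNA helicase, had 107 intronic to 791 exonic reads after herboxidiene and 0 to 1166 in DMSO, at least 52.6-fold higher. Its ratio after herboxidiene, 0.136, was still under that of its inner introns, 0.274. In CB-RNA the same intron had 108 to 718 in the libraries labelled xrn3 and 147 to 681 in Col-0, so it was seen unspliced on chromatin while it was not in total RNA of DMSO seedlings.

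The other 5 rises had the same form. MAP70-1, a microtubule-associated protein, had 71 to 188 after herboxidiene and 0 to 278 in DMSO, at least 35-fold higher. CNX1, the calnexin of the endoplasmic reticulum, had 103 to 240 and 0 to 240, at least 34.3-fold higher. AT3G58510 had 81 to 213 and 0 to 264, iqd2, of the calmodulin-binding IQ-domain family, had 65 to 298 and 0 to 436, and AT5G39590 had 86 to 460 and 0 to 483. These were at least 33.5-fold, 31.7-fold and 30.1-fold higher in that order. At CNX1 the ratio after herboxidiene was 0.430 at the last and 0.354 at the inner introns, a difference that did not pass the test (Fisher's exact test, adjusted p = 0.33).

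The 6 largest falls in fitted log2 ratio among well-covered members had no intronic read after herboxidiene, so their order rests on the 0.5 added to each count. GLYR1, a glyoxylate reductase, had 0 to 319 after herboxidiene and 22 to 296 in DMSO, at least 7.90-fold lower. AT1G72550 had 0 to 167 and 20 to 143, at least 7.79-fold lower. Its last intron was under its inner introns after herboxidiene (inner ratio 0.0605) and over them in DMSO, at 0.143 against 0.0279, in xrn3-labelled libraries, at 0.350 against 0.104, and in Col-0, at 0.414 against 0.181.

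PGRL1B, which takes part in cyclic electron flow around photosystem I and whose last intron lies in the 3′ UTR, had 0 to 141 after herboxidiene and 19 to 137 in DMSO, at least 6.52-fold lower. COS1, the lumazine synthase of riboflavin synthesis, had 0 to 134 and 21 to 184, at least 5.10-fold lower. AT4G35850 had 0 to 182 and 14 to 176, and AT5G37360 had 0 to 194 and 12 to 165, at least 4.83-fold and 4.70-fold lower in that order. With reads of the 5′ site alone, AT1G72550, PGRL1B, COS1 and AT5G37360 lost their calls, while GLYR1 and AT4G35850 kept them.

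Genes of termination and 3′ end processing were followed as a list of 25, all of which have at least 4 introns. Among xrn3-labelled reads, 11 of 22 tested were higher than the inner introns of their gene and 3 lower, where 32.4% and 12.4% of all genes tested were, with a median log2 difference of 0.63, against 0.29 over all genes tested. In Col-0, 10 of 22 were higher and 2 lower, where 32.6% and 14.1% of all genes were, with a median of 0.46, against 0.25. After herboxidiene 2 of 15 were higher and 4 lower, where 9.94% and 22.9% of all genes were (median -0.67, against -0.26). In DMSO 6 of 19 were higher and none lower, where 15.4% and 21% of all genes were (median 0.32, against -0.33).

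Among the cleavage and polyadenylation factors, the poly(A) polymerase nPAP had a last intron with ratios of 0.783 in the xrn3-labelled libraries, 0.902 in Col-0, 0.593 after herboxidiene and 0.780 in DMSO, while its inner introns had 0.134, 0.161, 0.0954 and 0.0472. The poly(A) polymerase PAPS2 had 0.542 in the xrn3-labelled libraries and 0.601 in Col-0 at the last intron, and 0.156 and 0.194 at the inner ones. After herboxidiene PAPS2 had the opposite order, with 0.204 at the last and 0.407 at the inner introns (Fisher's exact test, adjusted p = 0.0119). FIP1[V], a subunit that binds poly(A) polymerase, had 0.971 in Col-0, 1.14 after herboxidiene and 0.850 in DMSO at its last intron, which is followed by a last exon of 57 bp. Another model of the gene has an exon over the last intron of nPAP, of PAPS2 and of FIP1[V], so that some of these intronic reads may be exonic in another transcript. In contrast, CPSF73-I, the endonuclease of the cleavage complex, had 7 intronic to 183 exonic reads in the libraries labelled xrn3 and 7 to 99 in Col-0, and its last intron was under the inner ones in both (ratios of 0.0409 against 0.170 and 0.0754 against 0.267).

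FCA and FPA, RNA-binding proteins that act on poly(A) site choice, and FY, their partner in the processing complex, also had last introns with high ratios on chromatin. FCA had 85 intronic to 136 exonic reads in the libraries labelled xrn3 and 97 to 143 in Col-0, FPA had 24 to 66 and 20 to 47, and FY had 52 to 75 and 97 to 156, in the same order, all above their inner introns in the test. The last introns of FCA and FPA lie in the 3′ UTR, and that of FPA is exonic in another model of the gene. Among the Pol II subunits, NRPB1, the largest, had 0.219 in the xrn3-labelled libraries, 0.261 in Col-0, 0.416 after herboxidiene and 0.389 in DMSO at its last intron, also in the 3′ UTR, and 0.0828, 0.105, 0.320 and 0.0761 at the inner ones.

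In the comparison of xrn3-labelled with Col-0 libraries, 20 of the list were tested, 1 rose and 4 fell, where 1.51% and 20.4% of all last introns did, with a median log2 change of -0.24, against -0.35 over all last introns. The rise was XRN3 itself, with 40 intronic to 138 exonic reads in the libraries labelled xrn3 and 46 to 309 in Col-0 (Fisher's exact test, adjusted p = 0.0302). The falls were in GTA2, an SPT5 elongation factor, with 22 to 366 and 71 to 269, in CPSF160, with 15 to 253 and 49 to 257, in the Pol II subunit NRPB2, with 11 to 122 and 40 to 157, and in PCFS4, a cleavage factor, with 36 to 198 and 103 to 288. At GTA2 the log2 change was -2.11 for the last and -0.50 for the inner introns. After herboxidiene 15 were tested, 4 rose and none fell, where 55.6% and 3.47% of all last introns did, with a median of 0.77, against 1.74 over all last introns.

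Of a list of 16 spliceosome genes, 10 have at least 4 introns. On chromatin, 2 of these 10 last introns were higher than the inner ones and 1 lower in the libraries labelled xrn3, and 1 was higher and 1 lower in Col-0, against the shares over all genes given above. The median log2 difference was 0.38 in the libraries labelled xrn3, against 0.29 over all genes, and 0.39 in Col-0, against 0.25. After herboxidiene 4 of 9 rose and none fell, with a median log2 change of 0.79, against 55.6%, 3.47% and 1.74 over all last introns. SUS2, the Arabidopsis PRP8, had 27 intronic to 265 exonic reads after herboxidiene and 0 to 329 in DMSO, at least 11.2-fold higher. MEE5, an elongation-factor-like GTPase of the U5 particle, had 21 to 142 in the libraries labelled xrn3 and 80 to 118 in Col-0, with ratios of 0.151 and 0.679 (adjusted p = 2.99e-07 by Fisher's exact test), while its inner introns had 0.0924 and 0.146. ATU2AF65A, which binds the polypyrimidine tract, had 11 to 130 after herboxidiene and 2 to 255 in DMSO. Both lists were chosen with earlier results of these data known.

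Pol II pausing at the 3′ end is given as the 3′ pause index (3′PI), the read density of the 50-bp peak window near the polyadenylation site over that of the gene body, recomputed from the deposited reads of genes listed as paused. Among members with a 3′PI, its median was 31.7 in the xrn3-labelled libraries (7963 genes), 28.6 in Col-0 (7619), 7.24 after herboxidiene (4127) and 13.4 in DMSO (5973). The ratio of the last intron went with it only weakly. Spearman's rho between ratio and 3′PI was -0.0585 in the libraries labelled xrn3, -0.0335 in Col-0, -0.0804 after herboxidiene and -0.0272 in DMSO. With at least 50 exonic reads at both sites it was -0.159 after herboxidiene and -0.0718 in DMSO.

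For the inner introns of the same genes rho was -0.161, -0.136, -0.124 and -0.0288 in the same order, and for the first introns -0.171, -0.175, -0.182 and -0.0475. These unadjusted values were nearest 0 for the last intron in all 4 groups, in DMSO by little. With the number of introns and the exonic reads held, rho of the last intron was -0.0667 in the libraries labelled xrn3, -0.0298 in Col-0, -0.145 after herboxidiene and -0.0807 in DMSO. In the same order it was -0.132, -0.0908, -0.205 and -0.112 for inner introns and -0.116, -0.117, -0.239 and -0.0799 for first introns, so that in DMSO the last intron was not the one nearest 0. With the inner introns held, it lay between -0.0170 in DMSO and 0.0246 in Col-0. These are descriptions across genes of pooled tables, in which the 3′PI also goes with intron number (rho of 0.328 in the xrn3-labelled libraries, 0.301 in Col-0, -0.106 after herboxidiene and 0.208 in DMSO).

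Members were also ranked by last-intron ratio and cut into 4 sets of equal size. For xrn3-labelled libraries the median 3′PI was 32.7, 34.8, 30.8 and 28.4, from the set with the lowest ratios to the set with the highest, and in Col-0 it was 28.5, 29.6, 30.1 and 26.3. After herboxidiene it was 7.41, 7.49, 7.60 and 6.52, and in DMSO 14.1, 13.1, 13.8 and 13.1. For sets cut by the first-intron ratio the Col-0 medians were 35.6, 30.2, 27.3 and 23.1, and for sets cut by the inner-intron ratio 31.4, 31.1, 29.1 and 22.9, so in Col-0 the set with the highest last-intron ratios stood below the other 3 by less than the corresponding sets of first or inner introns did. The peak window and the last intron are close in space, but 73.3% of the last introns with a gene end (7504 members) lie wholly inside the stretch counted as gene body for the index.

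**Figure D5:**
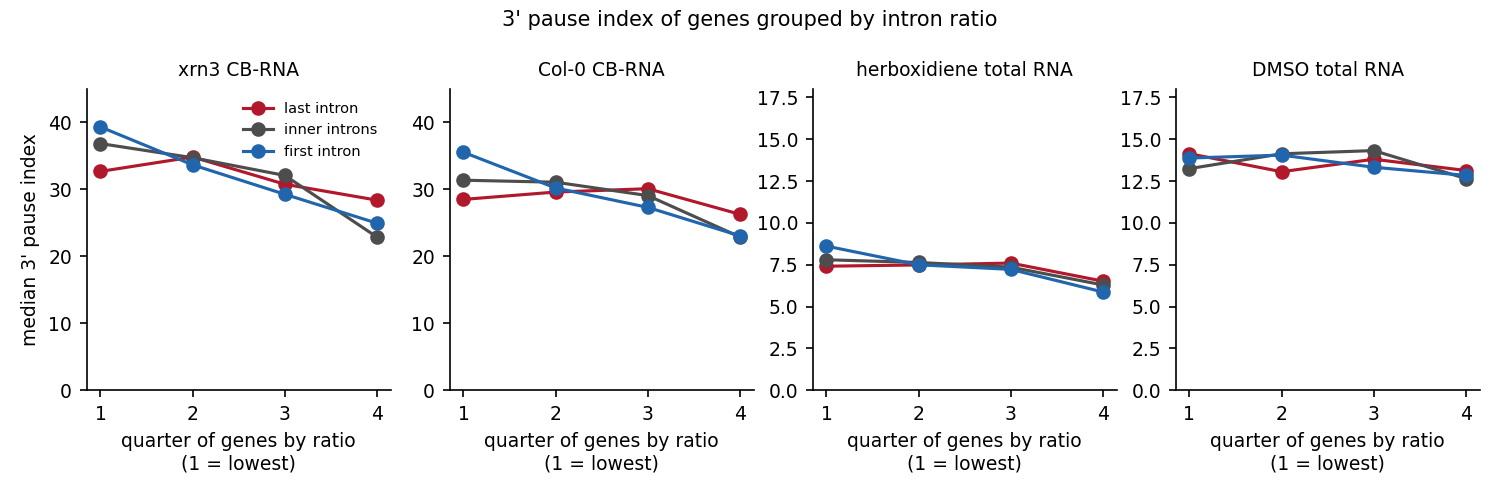
Median 3′PI (peak window over gene body read density, no unit) in 4 equal sets of genes ranked by intron ratio, lowest to highest, for last, inner and first introns, one panel per group, each with its own linear y axis. For last introns in Col-0 the medians run 28.5, 29.6, 30.1 and 26.3, and for first introns 35.6, 30.2, 27.3 and 23.1.

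The changes were compared in the same genes. The 3′PI was higher in the xrn3-labelled libraries than in Col-0 in 71.3% of 7314 members, with a median log2 change of 0.19, and rho between this change and that of the last-intron ratio was 0.000846, against -0.0459 for inner introns. After herboxidiene the 3′PI was higher than in DMSO in 16.6% of 3966 members, with a median log2 change of -0.83. Here rho between the changes was 0.202 for last, 0.220 for inner and 0.0149 for first introns.

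The sign of that rho means that the 3′PI was less reduced where the ratio of the last intron had risen more. Members whose last intron rose after herboxidiene had a median 3′PI of 7.19 after herboxidiene and 12.7 in DMSO, with a median log2 change of -0.66 over 2373 genes. Those whose last intron fell had 6.78 after herboxidiene and 22.3 in DMSO, with a change of -1.45 over 126 genes. Those not called had 7.38 and 17.6, with a change of -1.12 over 1467 genes. After herboxidiene these medians lay close together, and in DMSO they lay far apart. Only genes listed as paused in both groups enter here, so genes listed in DMSO alone are left out. Among members with a 3′PI, the peak window held a median of 15 reads after herboxidiene and 22 in DMSO. The part of this selection and of the low counts in the pattern was not tested. The members that rose had fewer introns, as given above, and the part of intron number in this pattern was not tested.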

How the data were processed

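The 8 tables used here hold 1 pooled value for each of 4 conditions (2 libraries each in pNET-seq and CB-RNA-seq, 3 in total RNA-seq), and no value per library was used. Samples were grouped by genotype and treatment as labelled. For the RNA tables the authors used Trimmomatic 0.39 for trimming and HISAT2 2.2.0 for mapping, as the submitters' processing notes also give, and kept unique reads. The deposited read counts at each splice site are whole numbers, not normalised, at genes the authors took as expressed by their TPM. The deposited ratio of intronic to exonic reads is their quotient. The pNET-seq tables hold the authors' counts in gene body and peak window, and list genes by a deposited adjusted p-value. Columns of the authors' own pause index and q-value were not printed, and the index was recomputed from the counts. A second Col-0 intron table, which names no assay and holds other counts for the same introns, was not used, so every Col-0 CB-RNA value rests on the table named for that assay.

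Intron ratios sum both splice sites with a pseudocount of 0.5, at introns with at least 10 exonic reads at both sites. All listed introns together held 29404905 exonic reads in the xrn3-labelled libraries, 27795104 in Col-0, 15070870 after herboxidiene and 20857373 in DMSO. Passing introns had a median between 144 and 212 reads per intron. Intronic and exonic counts were compared by two-sided Fisher's exact tests with Benjamini-Hochberg adjustment over all introns tested, or over genes, at 0.05. Differences between 2 changes in a gene used the normal test of log odds ratios. These tests cover read counting only. Counting intervals are at the 95% level. A count of 0 was taken to allow up to 3 reads. Folds given as at least put that count at 3 and take the other counts as they stand, so they are no limits of such intervals. Named members are the 6 largest rises and 6 largest falls per comparison among called members with at least 50 exonic reads at both sites in both groups, the 4 largest excesses and deficits of last over inner introns in Col-0, and the members of 2 lists. The members and lists were chosen with earlier results of these data known. Gene models and sequences are from RefSeq TAIR10.1. Computation was in Python 3.11.15 (pandas 2.3.3, scipy 1.17.1, numpy 2.4.6), plots in matplotlib 3.10.9, and the scripts were tested on simulated data. Alternatives tried were each splice site alone, halved counts, other minimums of reads and introns, a stricter threshold, a fold minimum, another pseudocount, and genes without overlaps. Comparison with the penultimate intron, with annotation-filtered members and with members passing in all 4 conditions was added after seeing the data.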

Additional observations from a re-analysis of the deposited data

Results flagged for a closer look

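At 12 of the members named for a rise or a fall, the change of the last intron differed from that of the inner introns of the same gene in the comparison that named them. This was seen in the test of the difference itself over read counts of pooled libraries, adjusted over genes at a threshold of 0.05, which covers counting error only. The members were picked for a large change at the last intron, and this test uses the same counts again. A difference from the inner introns is therefore partly built in, and these calls are no independent evidence. The values are the log2 change of the last intron minus that of the inner introns. For the libraries labelled xrn3 against Col-0, the last intron changed upward relative to the inner ones in TOC75-III by 2.94 (SE 0.84, with 2.38 at the last and -0.56 at the inner introns), in PES1 by 2.77 (SE 0.73), in AT1G27850 by 2.06 (SE 0.58) and in AT1G20220 by 2.67 (SE 0.42). It changed downward in AT4G12590, with a difference of -2.96 (SE 0.63), in AT1G77550, with -3.3 (SE 0.84), and in AT2G25980, with -2.71 (SE 0.88). All of the upward ones lost the call of their own rise with reads of the 5′ splice site alone. With halved counts the test of the difference called far fewer genes in either direction, as given below. Whether the genes named here, upward or downward, kept their call of the difference under that setting was not followed.

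For herboxidiene against DMSO, the last intron changed upward relative to the inner ones in DRH1 by 5.72 (SE 2.05) and in AT3G58510 by 5.7 (SE 2.06). It changed downward in GLYR1, with a difference of -5.83 (SE 2.09), in AT1G72550, with -6.7 (SE 2.08), and in COS1, with -5.94 (SE 2.12). Each of these 5 has a last intron with 0 intronic reads in 1 of the conditions, so the fitted differences depend on the 0.5 added to every count and are not bounds. At GLYR1 the inner introns changed by 0.23 on the log2 scale and at AT1G72550 by 1.12.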

How the results depend on the processing

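No paired analysis was possible because the tables hold 1 pooled column per condition, and for the same reason no replicate could be left out. Of 32 named values, 21 kept direction and call under every alternative that gave a value. The cause of the shifts below was not tested, except that halving the counts and using 1 site lower the number of reads per test.

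Median last-intron ratio. In the libraries labelled xrn3 it was 0.259 with the 5′ site alone, 0.279 with the 3′ site, 0.278 with at least 1 exonic read, 0.226 with at least 50, 0.261 with at least 7 introns, 0.249 in coding regions outside exons of other models and 0.237 in members passing in all 4 conditions. In Col-0 it was 0.338 with the 5′ site, 0.358 with 1 read, 0.311 with 50, 0.341 with 7 introns, 0.328 in those coding regions and 0.322 in members passing in all 4. After herboxidiene it was 0.113 with 50 reads, 0.116 with 7 introns and 0.139 in those coding regions. In DMSO it was 0.0437 with the 5′ site, 0.0364 with 50 reads, 0.0493 with a pseudocount of 1, 0.0412 in those coding regions and 0.0406 in members passing in all 4.

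Calls of last introns. For the libraries labelled xrn3 against Col-0, 0.231% rose and 6.77% fell with the 5′ site, 0.244% and 6.71% with the 3′ site, 0.0731% and 5.27% with halved counts, and 0.487% and 12.4% at a threshold of 0.01, and 31.6% fell with at least 50 reads. For herboxidiene against DMSO, 1.32% fell with the 5′ site, 1.84% with the 3′ site, 1.03% with halved counts and 1.91% at 0.01.

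Change of last against inner introns, upward and downward. For the libraries labelled xrn3 against Col-0 the shares were 0.233% and 0.147% with the 5′ site, 0.184% and 0.0858% with the 3′ site, 0.0981% and 0.0123% with halved counts, 1.14% and 1.01% at 0.01, and, turned round, 5.32% and 5.37% with 50 reads. For herboxidiene against DMSO they were 0.975% and 4.27% with the 5′ site, 1.21% and 4.1% with the 3′ site, 0.994% and 2.98% with halved counts, and 3.02% and 7.45% at 0.01.

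Last against inner introns within a gene. In the libraries labelled xrn3, 6.19% were lower with the 3′ site, and 19.5% higher and 5.71% lower with halved counts. In Col-0, 7.26% were lower with the 3′ site, and 21.3% higher and 7.48% lower with halved counts. After herboxidiene, 5.93% were higher and 11.2% lower with the 5′ site, 5.65% and 10% with the 3′ site, 4.41% and 7.92% with halved counts, and 11.1% lower against the penultimate intron alone. In DMSO the balance turned round to 9.4% higher and 8.69% lower with the 5′ site, 9.73% and 9.01% with the 3′ site, and 7.72% and 7.28% with halved counts, and 13.9% were lower at 0.01. With at least 50 reads, rho between 3′PI and last-intron ratio was -0.159 after herboxidiene and -0.0718 in DMSO. Depth limits single ratios most in DMSO, where the median last intron had 7 intronic reads.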

Other observations

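Some last introns had almost the same ratio in every RNA group. The last intron of TIC, a gene of the circadian clock, had 1.11 in the xrn3-labelled libraries, 1.08 in Col-0, 0.997 after herboxidiene and 1.07 in DMSO, while its inner introns had 0.241, 0.360, 0.607 and 0.0644 in the same order. SIZ1, a SUMO ligase, had 0.981, 0.998, 1.03 and 0.958 at the last and 0.130, 0.16, 0.169 and 0.0438 at the inner introns. VLN3, a villin of the actin cytoskeleton, had 1.09, 1.05, 1.18 and 1.07 at a last intron in the 3′ UTR, against 0.187, 0.232, 0.134 and 0.0647. All 3 are introns over which another model of the gene has an exon. These genes were picked after their values were seen, among the 84 members over 0.5 in all groups.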
